A study of Mus musculus with 16 samples.

Results

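Transforming growth factor beta (TGF-beta) ligands, receptors and SMADs were followed in mouse lung tumour cells with and without eIF4A2, an RNA helicase of the eIF4A family that acts on mRNA translation. The set held 10 genes chosen by symbol: the ligands Tgfb1, Tgfb2 and Tgfb3, the latent TGF-beta binding protein Ltbp1, the receptors Tgfbr1 and Tgfbr2, the receptor-activated SMADs Smad2 and Smad3, the common partner Smad4 and the inhibitory Smad7. All 10 were found among the 20622 genes of the total RNA tables and among the 15235 genes listed in the tables of ribosome-protected fragments.

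TGF-beta ligands are secreted in a latent complex, in which the cleaved propeptide still encloses the ligand and latent TGF-beta binding proteins tether it to the extracellular matrix. Released ligand binds the type II receptor Tgfbr2, which phosphorylates the type I receptor Tgfbr1, and the activated type I receptor phosphorylates Smad2 and Smad3. These join Smad4 and enter the nucleus, where they act on transcription, and Smad7 is induced as a feedback inhibitor of the receptor. The pathway restrains the growth of epithelial cells, and it is also known for inducing matrix genes and loss of epithelial character.

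Both lines descended from KM cells, isolated from lung tumours of 1 male mouse that carried conditional oncogene alleles, Rosa26LSL-MYC/LSL-MYC among them, which all groups shared. KM4A2cr cells had been transduced with lentiviral Cas9 and an Eif4a2 guide cutting in the coding sequence and were a pool of 4 clones without detectable eIF4A2 protein, whereas KMNTC cells had received a non-targeting guide. Neither line was treated. Each line gave 4 replicates, independent experiments done on different days, and from each lysate cytoplasmic total RNA and ribosome-protected fragments (RPFs) were sequenced, which made 16 libraries. Since 1 knockout pool was compared with 1 control line from the same animal, clone and eIF4A2 status cannot be told apart, and p-values measure the spread between experiments on these lines.

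RPF libraries held 4512403 to 9621848 counts within coding sequences and total RNA libraries 5350919 to 9312622 expected counts. Eif4a2 itself gave 97.7, 122.1, 99.8 and 388.7 RPF CPM (counts scaled to TMM-adjusted library size) in KMNTC replicates 1 to 4. In KM4A2cr it gave 51.0, 88.4, 74.8 and 345.7. It was lower in KM4A2cr in 4 of 4 pairs, with a log2 fold change of -0.49 ± 0.15 (SE, edgeR adjusted p = 0.0941), and -0.18 ± 0.13 in total RNA (edgeR adjusted p = 0.504). Reads over the edited gene can remain without functional protein, so the labels were checked by direction only. Replicate 4 stood apart in both lines, with the highest Eif4a2 and the smallest libraries of each kind. Values without it are given beside each member whose calls it changes. For single lists they are given in RPFs only. Epithelial markers were present (6 of 6, summed RPF level 7247.7 to 10829.6 CPM in KMNTC and 8855.7 to 12206.5 CPM in KM4A2cr). Of 7 alveolar type II markers only Abca3 and Etv5 averaged above 1 RPF CPM. The surfactant genes Sftpc and Sftpb that define this cell type had no RPF counts, as a gene without a listed RPF transcript also would. In total RNA 3 of the 7 averaged above 1 CPM in each line. The paper reports that cell identity was assessed by markers that included surfactant protein C. Fibroblast markers were near 0 except Pdgfra (9 genes, summed 2.63 to 21.4 CPM in KMNTC and 4.59 to 14.3 CPM in KM4A2cr), and leukocyte markers summed to at most 2.9 CPM. Endothelial markers summed to 1.45 to 4.25 CPM in replicates 1 to 3 of both lines and to 17.2 (KMNTC) and 12.4 CPM (KM4A2cr) in replicate 4. In each line only 1 of the 4 endothelial genes averaged above 1 RPF CPM.

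In KMNTC cells the receptors were the most abundant mRNAs of the set, and Tgfb2 and Tgfb3 the least. On the TPM scale (RNA abundance normalised to transcript length and library depth), the level in KMNTC total RNA was 211.3 ± 26.4 for Tgfbr2 (SD, n = 4) and 101.8 ± 16.3 for Tgfbr1, ranges that did not meet. Among genes above 1 TPM, 93.8% lay below Tgfbr2 and 86.4% below Tgfbr1. Smad4 followed with 53.3 ± 12.3 TPM, in a range that overlapped with those of Ltbp1 and Smad2. Ltbp1 (35.5 ± 14.9 TPM) and Smad2 (34.1 ± 5.6 TPM) did not differ beyond their spread, nor did Smad7 (22.6 ± 6.4 TPM), Smad3 (22.5 ± 4.84 TPM) and Tgfb1 (14.4 ± 5.5 TPM). Tgfb2 and Tgfb3 came last, with 0.745 ± 0.159 and 0.28 ± 0.148 TPM. Tgfb1 was therefore the only TGF-beta ligand of these cells with an mRNA level above 1 TPM. KM4A2cr cells had the same order at its ends, with Tgfbr2 at 190.9 ± 88.2 TPM and Tgfbr1 at 106.4 ± 39.6 TPM, whose ranges here overlapped, and Tgfb1 at 14.8 ± 2.86 TPM, and Ltbp1 (50.8 ± 28.4 TPM) and Smad4 (40.1 ± 10.3 TPM) traded places within their spread.

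Against this background of levels, only RPFs of Tgfb1 and the translational efficiency of Tgfbr1 passed the edgeR test, both higher in KM4A2cr cells. RPFs, total RNA and translational efficiency (the change of RPFs relative to that of total RNA from the same lysates) were each fitted over all genes with edgeR, with the replicate number as a block and a threshold of 0.1 on the Benjamini-Hochberg adjusted p. Of the 10 members 8 had enough counts to be tested in each measure; Tgfb2 and Tgfb3 did not. In RPFs 1 of the 8 was called by edgeR, against 10.3% of all 10291 genes tested, and DESeq2 called 2, against 9.31%. In total RNA 0 of the 8 were called by edgeR, against 6.13% of 10880 genes, with 1 member at an unadjusted p under 0.05 (18.3% of all genes), and DESeq2 also called 0. In translational efficiency 1 of the 8 was called, against 2.87% of 9989 genes (1.87% called higher). Both edgeR calls were lost at a threshold of 0.05, without the block, and without replicate 1, 2 or 3. Estimates above 0 were held by 7 of the 8 in RPFs, 4 in total RNA and 6 in translational efficiency, against 48.9%, 51.6% and 47.4% of all genes. The median log2 fold change of the tested members was 0.17 in RPFs (all genes -0.01), 0.00 in total RNA (all genes 0.01) and 0.25 in translational efficiency (all genes -0.02). For no member did the 4 KMNTC libraries separate from the 4 KM4A2cr libraries, in RPFs or in total RNA, a pattern shown by 2.13% and 1.97% of all genes tested. In such bulk samples, fewer cells of a type and less RNA per cell cannot be told apart.

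**Figure D1:**
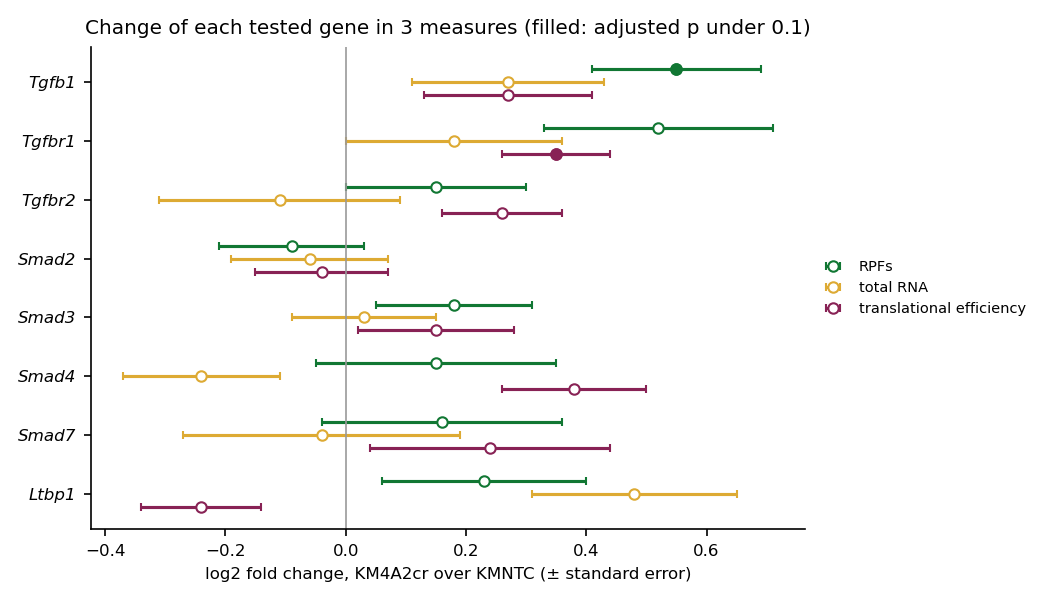
Log2 fold change of KM4A2cr over KMNTC for the 8 tested genes (rows) in RPFs (green), total RNA (yellow) and translational efficiency (purple). Points are edgeR estimates, bars are standard errors, and filled points have an adjusted p under 0.1: only Tgfb1 in RPFs (0.55) and Tgfbr1 in translational efficiency (0.35) are filled.

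Tgfb1, the main TGF-beta ligand of most tissues, had RPF levels of 32.9, 31.1, 59.6 and 101.3 CPM in KMNTC replicates 1 to 4 and of 60.1, 50.6, 75.1 and 124.1 CPM in KM4A2cr. Levels differed more between replicates than between lines, with replicate 4 highest in both, so the groups overlapped, but within each pair KM4A2cr was the higher. The log2 differences of the pairs were 0.87, 0.70, 0.33 and 0.29. The fitted log2 fold change was 0.55 ± 0.14 (SE), 1.46-fold, with an edgeR adjusted p of 0.0659. An exact two-sided sign-flip test over the 4 pairs gave p = 0.125, the smallest value that 4 pairs allow, and 14.1% of all genes were likewise higher in 4 of 4 pairs. Tgfb1 mRNA was low in the same lysates, at 9.96, 11.0, 18.4 and 29.7 CPM in KMNTC and 17.2, 11.7, 18.7 and 34.3 CPM in KM4A2cr. It too was higher in each pair, mainly in the first (0.77, 0.09, 0.03 and 0.21), and its log2 fold change of 0.27 ± 0.16 did not pass the test (edgeR adjusted p = 0.421). Translational efficiency had an estimate of the same size, 0.27 ± 0.14, that did not pass either (edgeR adjusted p = 0.381). The RPF call was lost without replicate 1, 2 or 3, where the log2 fold change was 0.44, 0.50 and 0.65 and edgeR's adjusted p 0.223, 0.351 and 0.25, in fits that called 2.27%, 1.2% and 0.31% of all genes. Without replicate 4 it was 0.63 (edgeR adjusted p = 0.00315), in a fit that called 33.4% of all genes. The fit without the replicate block put the log2 fold change at 0.46, with an edgeR adjusted p of 0.998.

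Tgfb2 and Tgfb3, the other 2 ligands, were close to the limit of detection. RPFs of Tgfb2 numbered 12, 5, 12 and 12 counts in KMNTC and 9, 4, 8 and 2 counts in KM4A2cr, sums of 41 and 23. In total RNA its sums were 51 and 25 counts. Replicate 4 had 14 counts of total RNA in KMNTC against 1 in KM4A2cr, and the groups overlapped. Tgfb3 had 2 RPF counts in all of KMNTC and 2 in all of KM4A2cr. The floor in a single library was 3 counts, or 0.312 to 0.665 CPM before TMM scaling. A difference in Tgfb3 translation was not detectable at this depth, although 16 and 13 counts of its mRNA were present.

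**Figure D2:**
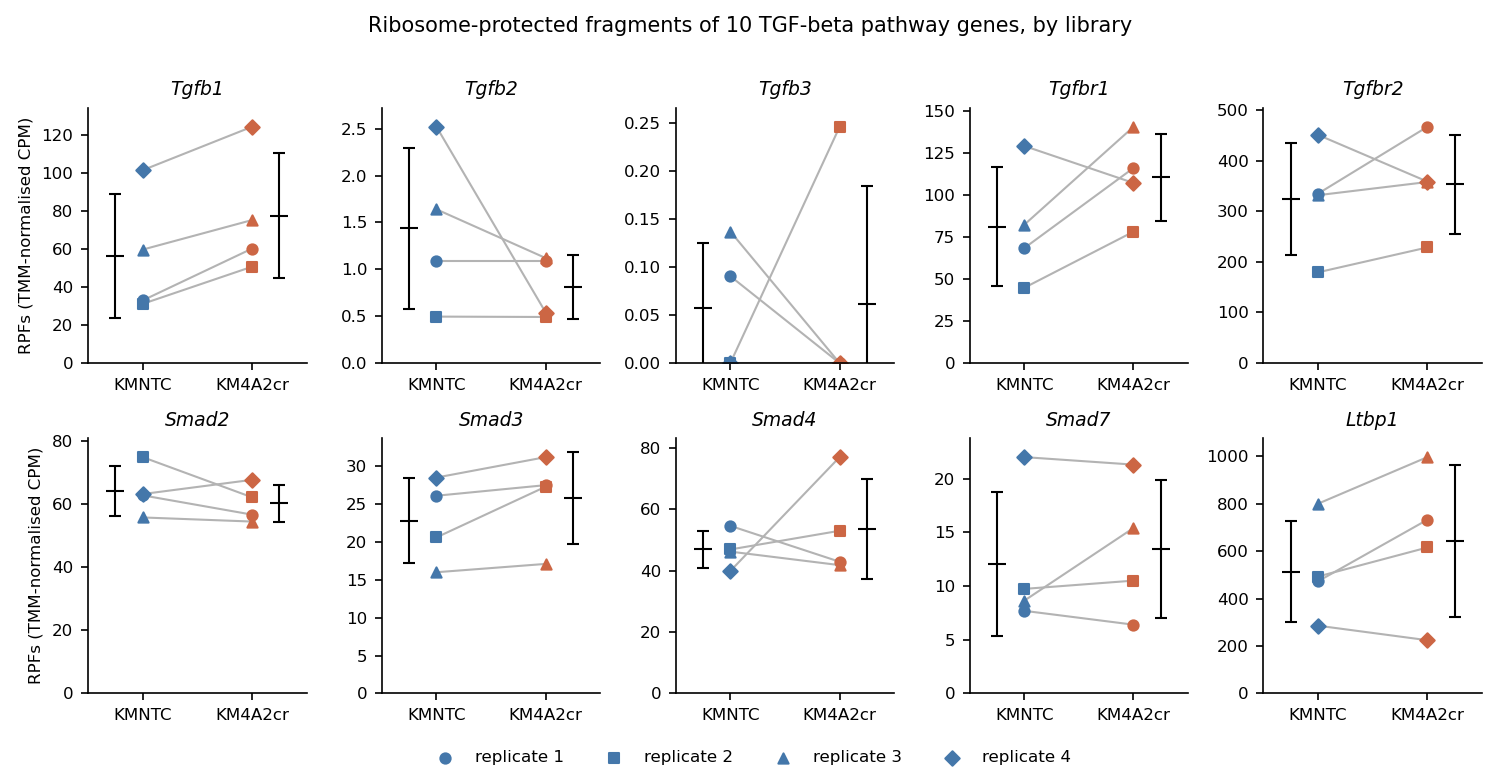
RPF level of each of the 10 genes (panels, linear axis from 0, TMM-normalised CPM) in KMNTC (blue) and KM4A2cr (orange), with a symbol for each replicate, grey lines joining pairs, and black bars for mean and SD (n = 4, bars end at 0). All 4 lines rise for Tgfb1, and replicate 4 runs against the other 3 for Tgfbr1, Tgfbr2 and Ltbp1.

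Ltbp1, which tethers the latent ligand to the matrix, had a direction that was split by replicate. RPFs stood at 472.8, 492.8, 799.9 and 285.5 CPM in KMNTC and 732.1, 615.2, 996.2 and 224.3 CPM in KM4A2cr. Total RNA stood at 121.9, 109.3, 149.6 and 53.5 CPM in KMNTC and 212.6, 171.4, 232.9 and 44.3 CPM in KM4A2cr. Replicate 4 was the lowest in every group, and it alone was lower in KM4A2cr, in both kinds of library. The log2 fold change was 0.23 ± 0.17 in RPFs (edgeR adjusted p = 0.431) and 0.48 ± 0.17 in total RNA (edgeR adjusted p = 0.173), so neither passed the test. The ratio of RPF CPM to total RNA CPM was 3.88, 4.51, 5.35 and 5.34 in KMNTC and 3.44, 3.59, 4.28 and 5.07 in KM4A2cr, lower in 4 of 4 pairs. Ltbp1 thus had the only negative efficiency estimate among the members with a like direction in every pair, -0.24 ± 0.10, which did not pass (edgeR adjusted p = 0.243). Without replicate 4 it was called higher in RPFs (0.42, edgeR adjusted p = 0.0119) and in total RNA (0.69, adjusted p = 1.79e-05) and lower in translational efficiency (-0.26, adjusted p = 0.0749), in fits that called 33.4%, 29.8% and 7.94% of all genes.

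The receptors had like directions in RPFs, higher in KM4A2cr in replicates 1 to 3 and lower in replicate 4. Tgfbr1, the type I receptor kinase that phosphorylates Smad2 and Smad3, had 68.4, 44.8, 82.3 and 129.2 RPF CPM in KMNTC and 116.1, 78.2, 140.6 and 107.2 RPF CPM in KM4A2cr. It was higher in KM4A2cr in replicates 1 to 3, by 0.76, 0.80 and 0.77 on the log2 scale, and lower in replicate 4 (-0.27), and the groups overlapped. The fitted change of 0.52 ± 0.19 was nearly that of Tgfb1 but did not pass (edgeR adjusted p = 0.145), whereas DESeq2 called it narrowly (adjusted p = 0.0992). Its mRNA went from 199.3, 133.2, 243.7 and 254.1 CPM in KMNTC to 251.0, 189.7, 329.8 and 167.8 CPM in KM4A2cr, with replicate 4 again the exception (0.18 ± 0.18, edgeR adjusted p = 0.663).

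The RPF-to-mRNA ratio of Tgfbr1 did not share that exception. It was 0.343, 0.336, 0.338 and 0.509 in KMNTC and 0.462, 0.412, 0.426 and 0.639 in KM4A2cr. Replicate 4 had the highest ratio in both lines, which made the groups overlap, yet every pair moved up by a like amount, 0.43, 0.29, 0.33 and 0.33 on the log2 scale. Translational efficiency of Tgfbr1 rose by 0.35 ± 0.09 (1.27-fold, edgeR adjusted p = 0.0707). The sign-flip p was 0.125, the smallest that 4 pairs allow, and 10.5% of all genes were higher in 4 of 4 pairs. The call was lost without replicate 1, 2 or 3 (edgeR adjusted p = 0.397, 0.257 and 0.198), without the replicate block (0.957) and with library size as the only scaling (0.106); the estimate stayed between 0.32 and 0.39. Without replicate 4 the same fit gave an adjusted p of 0.0138, and called 7.94% of all genes. RPFs and mRNA of Tgfbr1 were then also called, at 0.78 (0.000195) and 0.42 (0.00197), in fits that called 33.4% and 29.8% of all genes.

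Tgfbr2, the ligand-binding type II receptor, had RPF levels of 334.7, 179.3, 331.6 and 450.6 CPM in KMNTC and 466.6, 228.4, 357.6 and 358.4 CPM in KM4A2cr. As for Tgfbr1, replicates 1 to 3 were higher in KM4A2cr and replicate 4 was lower. The change of 0.15 ± 0.15 did not pass (edgeR adjusted p = 0.591). Without replicate 4 it was 0.31 (edgeR adjusted p = 0.044), in a fit that called 33.4% of all genes. Total RNA averaged 654.4 ± 104.8 CPM in KMNTC and 634.4 ± 246.0 CPM in KM4A2cr (SD, n = 4; log2 fold change -0.11, edgeR adjusted p = 0.827; 0.12 without replicate 4). The ratio of RPFs to mRNA was 0.459, 0.358, 0.465 and 0.668 in KMNTC and 0.489, 0.437, 0.525 and 0.944 in KM4A2cr. It was higher in each pair, with overlapping groups, but the efficiency estimate of 0.26 ± 0.10 missed the threshold (edgeR adjusted p = 0.18).

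**Figure D3:**
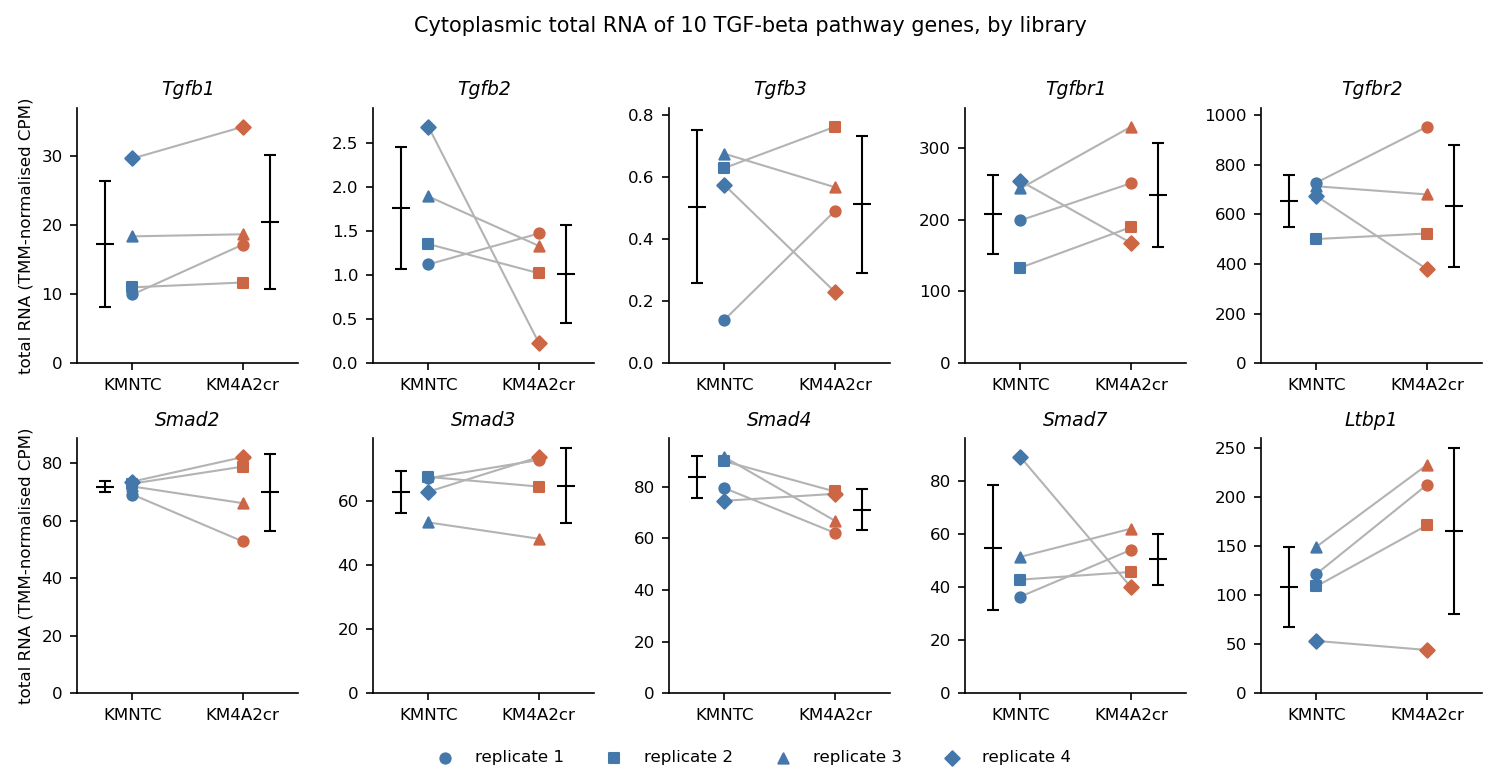
Cytoplasmic total RNA of the same 10 genes on the same layout (linear axis from 0, TMM-normalised CPM; bars are mean and SD, n = 4). Replicate 4 of the receptors, Smad7 and Ltbp1 is lower in KM4A2cr while replicates 1 and 2 are higher, and the groups overlap for every gene.

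No SMAD was called in any of the 3 measures. Smad2 had 62.7, 74.8, 55.7 and 63.1 RPF CPM in KMNTC and 56.6, 62.1, 54.4 and 67.6 RPF CPM in KM4A2cr. Its log2 fold change was -0.09 ± 0.12 in RPFs (edgeR adjusted p = 0.7), -0.06 ± 0.13 in total RNA (0.863) and -0.04 ± 0.11 in translational efficiency (0.924). Its groups lay over each other, and each estimate was smaller than its standard error. Smad3, the other receptor-activated SMAD, had lower RPF levels of 26.1, 20.6, 16.0 and 28.5 CPM in KMNTC and 27.5, 27.3, 17.1 and 31.2 CPM in KM4A2cr. Every pair was slightly higher in KM4A2cr, but the estimate of 0.18 ± 0.13 did not pass (edgeR adjusted p = 0.447), and its total RNA gave 0.03 ± 0.12 (0.926).

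For Smad4, the partner shared with the bone morphogenetic protein (BMP) pathway, mRNA and RPFs had estimates of opposite sign, neither past the threshold. Total RNA was 79.4, 89.8, 91.4 and 74.5 CPM in KMNTC and 62.1, 78.1, 66.8 and 77.2 CPM in KM4A2cr, lower in 3 of 4 pairs. RPFs were 54.6, 46.9, 46.2 and 39.9 CPM in KMNTC and 42.9, 53.0, 41.8 and 77.0 CPM in KM4A2cr, where replicate 4 changed from the lowest to the highest value. The log2 fold change was -0.24 ± 0.13 in total RNA (edgeR adjusted p = 0.362) and 0.15 ± 0.20 in RPFs (0.706). The RPF value turned to -0.10 without replicate 4, and total RNA was then called lower (-0.34, edgeR adjusted p = 0.0174). That total RNA fit called 29.8% of all genes. Translational efficiency had the largest estimate of the set, 0.38 ± 0.12, positive in 4 of 4 pairs (0.01, 0.38, 0.31 and 0.89) but not past the threshold (edgeR adjusted p = 0.129; 0.0498 with no filter on low counts). Smad7, the feedback inhibitor, had RPF levels of 7.69, 9.73, 8.63 and 22.0 CPM in KMNTC and 6.40, 10.5, 15.4 and 21.3 CPM in KM4A2cr. Replicate 4 exceeded all other Smad7 values in both lines, and the estimate of 0.16 ± 0.20 did not pass (edgeR adjusted p = 0.661). In total RNA Smad7 was higher in the first 3 pairs (0.57, 0.09 and 0.27) and went from 89.1 to 40.1 CPM in replicate 4. The fitted change was -0.04 ± 0.23 (edgeR adjusted p = 0.956). Without replicate 4 it was 0.30 (edgeR adjusted p = 0.0679), in a fit that called 29.8% of all genes.

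**Figure D4:**
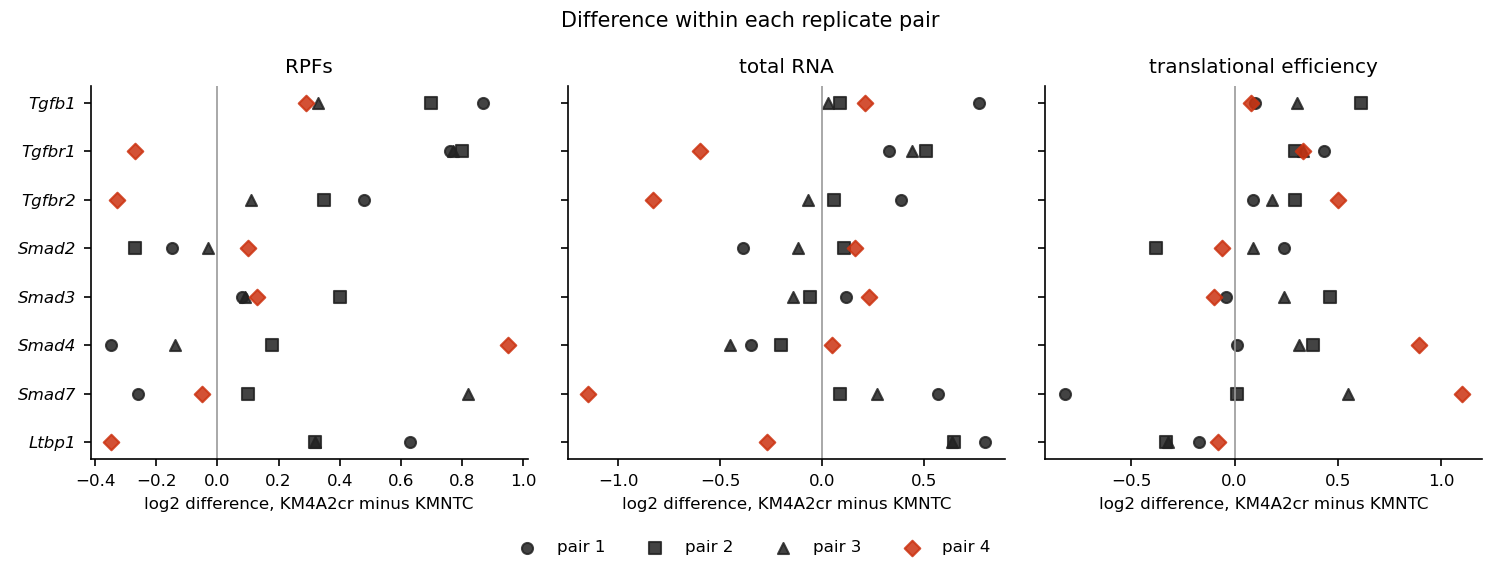
Log2 difference, KM4A2cr minus KMNTC, within each of the 4 replicate pairs (symbols, pair 4 in red) for the 8 tested genes in RPFs, total RNA and translational efficiency. Pair 4 lies on the negative side for Tgfbr1, Tgfbr2 and Ltbp1 in RPFs and total RNA, while Tgfb1, Tgfbr1, Tgfbr2 and Smad4 are above 0 in all pairs of translational efficiency.

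Replicate pairs thus moved the members together to different degrees. The median RPF difference over the 8 tested members was 0.28, 0.33, 0.21 and 0.02 in pairs 1 to 4, and in total RNA it was 0.36, 0.09, -0.02 and -0.11. In RPFs 2 of the 8 (Tgfb1 and Smad3) kept 1 direction in all 4 pairs, against 30.1% of all genes. In total RNA only Tgfb1 did, against 25.4%. In translational efficiency 5 of the 8 did, against 21.8%: Tgfb1, Tgfbr1, Tgfbr2 and Smad4 upwards and Ltbp1 downwards. At an unadjusted p under 0.05 the counts were 2, 1 and 4 of 8, against 23.4%, 18.3% and 14.1% of all genes.

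Across the 16 libraries, with levels centred within each kind of library, the receptors varied together (Tgfbr1 with Tgfbr2, Pearson's r = 0.77), and Tgfb1 ran with Smad7 (r = 0.66) and with Tgfbr1 (r = 0.60). Tgfb1 ran opposite to its binding protein Ltbp1 (r = -0.51), and Tgfbr2 opposite to Smad2 (r = -0.72). Replicate 4 had the highest Tgfb1 and the lowest Ltbp1 of every group. Its Smad7 was the highest in RPFs of both lines and in KMNTC total RNA, but the lowest in KM4A2cr total RNA. In pairs 1 to 3 Tgfb1 and Ltbp1 were both higher in KM4A2cr. None of the r given here was computed without replicate 4. Of all genes, Ctsh, which encodes the lysosomal protease cathepsin H, had the pattern most like Tgfb1 (r = 0.982), Tmco1, an endoplasmic reticulum membrane protein, that most like Tgfbr1 (r = 0.958), and F2r, the thrombin receptor, that most like Tgfbr2 (r = 0.958). These values are descriptions over 16 points that share lysates, replicate numbers and lines.

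Other genes of the pathway were read from 6 lists of 145 genes in all. In RPFs 85 were tested, of which 14 rose and 3 fell in KM4A2cr, against 6.60% and 3.72% of all genes tested, with a median log2 fold change of 0.10. In total RNA 9 rose and 3 fell among 80 tested, against 4.35% and 1.78%. Without replicate 4, 28 rose and 13 fell in total RNA among 82 tested, in a fit that called 29.8% of all genes. In translational efficiency only Ppm1a and Strap rose and Junb fell among 79, against 1.87% and 1.0% of all genes. Genes on chromosome 2 (RefSeq, GRCm38.p6) were lower as a whole in KM4A2cr (median -0.21 over 838 genes in RPFs), so the list genes it carries are marked here; none of the 10 members lies on it. Leaving out its list genes, 12 rose and 2 fell. Leaving out replicate 1, 2 or 3 left 5, 3 and 1 of the 17 RPF calls, and without replicate 4 there were 38, in fits that called 2.27%, 1.2%, 0.31% and 33.4% of all genes.

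Most calls of the latency and release list were increases. Of 25 genes 16 were tested in RPFs, 4 rose and 1 fell, with a median of 0.24, while of all 1062 genes called 679 rose. Without replicate 1, 2 or 3 the list had 0, 1 and 0 increases and 1, 0 and 0 decreases. Without replicate 4 it had 10 and 1, in a fit that called 33.4% of all genes. Furin, the convertase that cleaves the TGF-beta propeptide, averaged 80.5 ± 43.7 CPM in KMNTC RPFs and 216.4 ± 151.7 CPM in KM4A2cr (SD, 4 replicates each), higher by 1.35 ± 0.22 on the log2 scale (edgeR adjusted p = 0.0158), and its mRNA rose with it (1.03, adjusted p = 0.0111). Ltbp4, a latent TGF-beta binding protein like Ltbp1, rose by 1.28 ± 0.24 in RPFs (edgeR adjusted p = 0.0217) and by 1.34 in total RNA (0.00909). Htra1, a secreted serine protease, rose by 0.61 ± 0.16 (edgeR adjusted p = 0.0633), and Ltbp3, outside the naming rule and named after its value was seen, rose by 0.56 ± 0.15 (0.0679). Thbs1, whose product thrombospondin 1 can activate latent TGF-beta, fell from 3922.6 ± 1341.5 to 2260.8 ± 218.1 CPM (-0.74 ± 0.19, edgeR adjusted p = 0.0679) and lies on chromosome 2.

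Receptors and extracellular antagonists of the wider family that were called also rose. Among 14 other receptors and coreceptors 7 were tested and 2 rose, the BMP type I receptor Bmpr1a (0.73 ± 0.16, edgeR adjusted p = 0.0344) and the activin type I receptor Acvr1b (0.70 ± 0.16, 0.0501). Among 14 ligand traps 3 were tested and 2 rose, the BMP-binding Twsg1 (0.69 ± 0.14, edgeR adjusted p = 0.0305) and the activin-binding Fstl3 (0.58 ± 0.15, 0.0606). Among 29 other ligands 8 were tested and only Bmp2 was called (1.07 ± 0.29, edgeR adjusted p = 0.0723, higher in 3 of 4 pairs, on chromosome 2), with Bmp8b next by p (-0.64 ± 0.26, 0.173). Among 34 other SMADs and SMAD regulators 31 were tested, and Ppm1a, a phosphatase of Smad2 and Smad3, rose in RPFs (0.64 ± 0.14, edgeR adjusted p = 0.0344) and in translational efficiency (0.53, 0.0176); the list's median was 0.00. Without replicate 1, 2 or 3, Ppm1a alone was called in RPFs in the first case and no gene of these 4 lists otherwise. Without replicate 4, in a fit that called 33.4% of all genes, 4 receptors, 2 traps and 4 ligands rose. Of the SMADs and regulators 2 rose and 8 fell among 30 tested, whereas of all 10376 genes in that fit 1982 rose and 1487 fell.

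**Figure D5:**
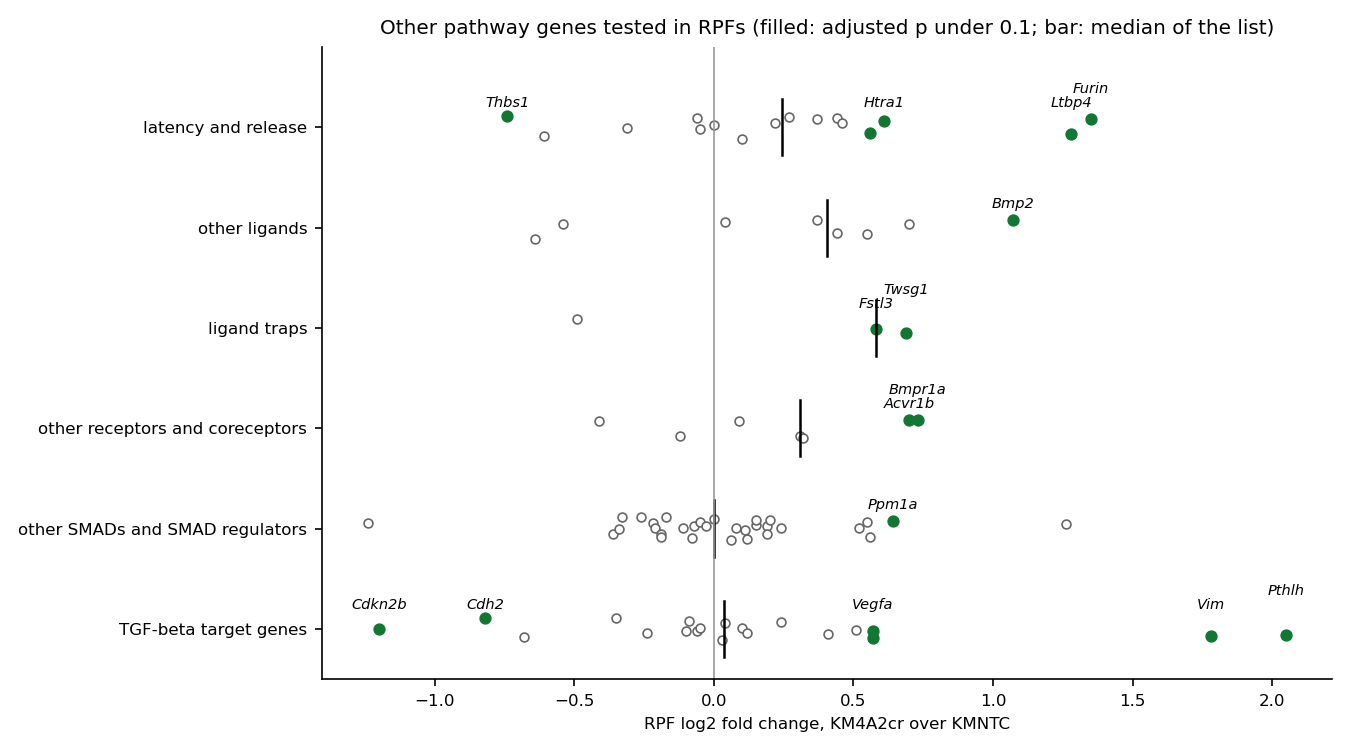
RPF log2 fold change of KM4A2cr over KMNTC for the tested genes of each pathway list (rows; vertical scatter within a row is only for legibility). Filled points have an edgeR adjusted p under 0.1, black bars are list medians, and 14 filled points lie to the right of 0 and 3 to the left.

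Known target genes of TGF-beta moved in both directions. Of 30 genes 20 were tested in RPFs, 4 rose and 2 fell, with a median of 0.04. Vim, the intermediate filament vimentin, went from 8.84 ± 2.41 to 30.9 ± 8.56 RPF CPM (1.78 ± 0.15, edgeR adjusted p = 0.00174) although it lies on chromosome 2. In RPFs it alone was called in every fit that left out a replicate, and in total RNA Vim, Pthlh and Cdkn2b all were. Pthlh, the parathyroid hormone-related peptide, rose from 57 to 186 counts in all (2.05 ± 0.25, edgeR adjusted p = 0.00505). Vegfa, an angiogenic factor, rose by 0.57 ± 0.15 (edgeR adjusted p = 0.0692), as did Klf10, an early TGF-beta response gene outside the naming rule (0.57 ± 0.16, 0.084), whose call was lost with DESeq2, upper-quartile factors and library size alone. Cdkn2b, the cell cycle inhibitor p15 that TGF-beta induces, went down from 20.3 ± 7.07 to 9.03 ± 3.73 CPM (-1.2 ± 0.21, edgeR adjusted p = 0.0195), and so did the mesenchymal cadherin Cdh2 (-0.82 ± 0.22, 0.0704). Fn1 and Ccn2, matrix-related genes often used as readouts of the pathway and named after their values were seen, had log2 fold changes of -0.06 ± 0.14 (edgeR adjusted p = 0.835) and -0.68 ± 0.25 (0.145). Ccn2 was called lower with DESeq2, with library size alone, with no filter and without replicate 4. Without replicate 1, 2 or 3 the list had 2, 2 and 1 RPF increases and 1, 0 and 0 decreases. Without replicate 4 it had 4 and 3, in a fit that called 33.4% of all genes. Beside these, the epithelial genes Epcam (0.51, edgeR adjusted p = 0.077) and Cdh1 (0.44, 0.0845) were higher in KM4A2cr RPFs; their part in the differences of the list was not tested.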

How the data were processed

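RPFs and cytoplasmic total RNA came from the same lysates. The submitters' processing notes name cutadapt 1.18, UMI-tools 1.0.1, Bowtie2 2.3.5.1, SAMtools 1.9, RSEM 1.3.3 and DESeq2. RPF values are the authors' deposited counts of footprints in the coding sequence of 1 transcript per gene. Total RNA values are deposited expected counts and TPM per isoform from RSEM, on GENCODE vM27; the expected counts were summed per gene and rounded, and the TPM were summed. Nearly all isoform values were whole, so isoforms of a gene were not compared. RPF counts cover coding sequence and total RNA counts whole transcripts. Floors cover counting error only, whereas standard errors and SDs include the spread between experiments.

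Genes were kept with filterByExpr (minimum count 10), scaled with TMM and tested with edgeR 4.0.16 (R 4.3.3), quasi-likelihood, with replicate as a block, at an adjusted p of 0.1. Translational efficiency was the interaction of line and library kind over 16 libraries, with a term per lysate and replicate within kind. Pair differences used log2 CPM with a prior count of 2. Replicate numbers were taken to pair the lines. Deviations of same-numbered samples from their group means correlated at 0.575 to 0.782 in RPFs and 0.611 to 0.756 in total RNA. These correlations cannot decide the pairing, because replicate 4 stood apart in both lines and enters every group mean. Differently numbered samples were not compared. Simulated data had 200 genes changed by 1 on the log2 scale. The RPF fit (10204 genes) recovered 94.9% of those tested, the total RNA fit (10814 genes) 97.0% and the efficiency fit (9886 genes) 54.1%. Of the calls, 13.5%, 12.3% and 10.9% were false. RPF and total RNA counts of a lysate were drawn separately. Smaller changes, like those of the members, were not simulated, so their recovery is not known.

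Members and pathway lists were chosen with earlier results of these data known. Named list genes were, per list, up to 3 called genes in each direction with the smallest RPF p and 1 direction in 4 of 4 pairs, or else the 2 of smallest p. Alternatives were no block, DESeq2 1.42.0, other scalings and filters, a threshold of 0.05, the RPF isoform alone, each replicate left out and, added after the data were seen, lists without chromosome 2. Chromosomes are RefSeq's, GRCm38.p6, another build than the files', so no coordinates are given. An allele shared by all groups and a target gene of the lists are not reported here by name.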

Additional observations from a re-analysis of the deposited data

Results flagged for a closer look

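In 40 groups of 4 libraries (10 genes, both lines, both kinds of library), 2 held a library farther from the others than Dixon's 95% limit for 4 values allows; chance flags about 1 in 20 groups. Smad7 RPFs in KMNTC replicate 4 stood at 22.0 CPM, against 7.69 to 9.73 CPM in the other 3, a gap of 0.858 of the whole range. Tgfb3 RPFs in KM4A2cr replicate 2 stood at 0.246 CPM, which is 2 counts, against 0 in the other 3.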

How the results depend on the processing

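Over the alternatives, single-gene values kept their direction and side of the threshold in 546 cases, lost the call in 86, gained it in 24 and turned in 12. The called members depended on the first 3 replicates and the block; DESeq2 size factors, upper-quartile factors and a mean CPM of at least 5 left the members' counts as they were. Depth limits Tgfb2 and Tgfb3. The cause of the differences was not tested.
Without the replicate block edgeR called 0 members, 0 list genes and 0 genes at all in RPFs, total RNA and translational efficiency, with 365, 362 and 506 genes at an unadjusted p under 0.05 (members 0, 0 and 1; DESeq2 with the block 958, 589 and 138 genes).
At a threshold of 0.05, 0 members were called in RPFs and in translational efficiency, and calls fell to 438, 321 and 75 genes in RPFs, total RNA and translational efficiency, with 8 list genes in RPFs.
DESeq2 called 2 members in RPFs (Tgfb1 and Tgfbr1) and 138 genes in translational efficiency.
Library size alone, which moved the median of all genes to -0.14 in RPFs and -0.15 in total RNA, called 1 member in total RNA (Smad4), 0 in translational efficiency, and 1619, 1130 and 133 genes.
With no filter 1 member was called in total RNA (Ltbp1) and 2 in translational efficiency (Smad4 and Tgfbr1), with 1268 genes in total RNA, 470 in translational efficiency and 21 list genes in total RNA.
Leaving out 1 replicate gave 0 to 4 members in RPFs, 0 to 4 in total RNA and 0 to 2 in translational efficiency, 32 to 3469, 63 to 3260 and 15 to 800 genes, and 1 to 38 list genes in RPFs and 3 to 41 in total RNA, with the highest counts each time without replicate 4.
Leaving out 1 replicate turned the log2 fold change of Tgfbr2 (-0.28 to 0.12, above 0 without replicate 4), Smad2 (-0.13 to 0.05, above 0 without replicate 1), Smad3 (-0.04 to 0.09, below 0 without replicate 4) and Smad7 (-0.25 to 0.30, above 0 without replicate 4) in total RNA.
It also turned that of Smad4 (-0.10 to 0.32, below 0 without replicate 4) and Smad7 (-0.04 to 0.29, below 0 without replicate 3) in RPFs, and of Smad2 (-0.13 to 0.10, above 0 without replicate 2) and Smad7 (-0.03 to 0.55, below 0 without replicate 4) in translational efficiency.
Smad2 translational efficiency also turned with the RPF isoform alone (0.06), Smad3 total RNA with upper-quartile factors (-0.01) and library size alone (-0.12), and Ppm1a total RNA with library size alone (-0.04).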
